A study of Mus musculus with 12 samples.

Results

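Respiratory complex I (NADH:ubiquinone oxidoreductase) was followed through its nuclear Nduf genes in mouse tissue and cells with and without Impdh2, the gene of an enzyme of guanine nucleotide synthesis. Every row of the count tables whose Ensembl identifier maps to a protein-coding gene with a symbol beginning in Nduf was taken. This gave 46 genes of 51826 identifiers in the forelimb table and the same 46 of 55401 in the culture tables. They comprise 36 subunits, 8 assembly factors, and Ndufa4 and Ndufa4l2, which keep an Nduf name although Ndufa4 is now counted with cytochrome c oxidase. The genes lie on 17 chromosomes. The 5 Nduf rows that are not protein-coding were left out: Ndufa11b, Ndufab1-ps, Ndufb4c and Ndufs6b, annotated as processed pseudogenes, and Ndufb1-ps, annotated as a long non-coding RNA.

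The study compared mRNA libraries in 6 groups of 2. Whole forelimbs of embryos at E12.5 (embryonic day) were either WT or Prx-cKO, in which Impdh2 is deleted in limb mesenchymal progenitors, so epithelium, blood and vessels in the same sample keep the gene. The other 4 groups were cultures from bone marrow of WT or LysM-cKO mice, the latter with Impdh2 deleted in the myeloid lineage, each in a state coded R0D3 and a state coded R40D3. All 8 are labelled osteoclast, and the shared protocol gives 3 days of marrow culture with L929 supernatant equivalent to 20 ng/ml M-CSF, followed by 40 ng/ml RANKL, the cytokine that drives macrophages to fuse into osteoclasts. The codes are not spelled out, so R40 and R0 are used here as written. The WT animals' Cre and floxed alleles and the age of the marrow donors are not given in the sources used here. Nothing says that replicates came from separate embryos, animals or cultures, so p-values measure only the spread between these libraries.

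Complex I takes electrons from NADH, passes them through iron-sulfur clusters to ubiquinone and pumps protons across the inner mitochondrial membrane. It is built from a peripheral arm, with an N module that oxidises NADH and a Q module that reduces ubiquinone, and a membrane arm that carries the proton channels, whose central subunits are encoded in mitochondrial DNA. Most accessory subunits and the assembly factors are nuclear and have no part in the catalysis itself. Mature osteoclasts are rich in mitochondria, and their formation is accompanied by mitochondrial biogenesis.

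Libraries held 28892215 to 69466572 counts in forelimbs and 16009146 to 19221865 in cultures, of which the 46 genes took 0.1555 to 0.4315%. Impdh2 stood at 22.3 and 28.2 CPM (counts relative to library size, the latter scaled by the trimmed mean of M-values) in the WT R0D3 libraries and at 7.36 and 7.03 in LysM-cKO. In R40D3 it was at 25.7 and 27.7 in WT and 7.72 and 8.38 in LysM-cKO, a fall of 1.81 and 1.73 on the log2 scale (adjusted p 0.0324 and 0.0386 with edgeR). In whole forelimbs it was at 260.4 and 272 in WT and 169.7 and 199 in Prx-cKO, lower by 0.53 on the log2 scale but not past the test over all genes (adjusted p 0.443). The summed level of 10 osteoclast markers was 325 to 471 CPM in R0D3 libraries, with 1 or 2 markers at 0, against 26292 and 38759 in WT R40D3 and 13189 and 24833 in LysM-cKO R40D3. The osteoclast label was thus not borne out in R0D3. The 6 macrophage markers summed to 7371 to 8319 CPM in R0D3 and 6864 to 8293 in R40D3. The limb mesenchyme markers summed to 1018 and 1052 CPM in WT and 797 and 897 in Prx-cKO forelimbs.

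All 46 genes passed the filter on low counts in forelimbs (19987 genes tested) and 45 of 46 passed it in cultures (14030 tested). The gene that failed was Ndufa4l2, a relative of Ndufa4 known as a target of hypoxia signalling, with 0 counts in 7 of 8 culture libraries and 0.122 CPM in WT R40D3 replicate 2. For 8 genes a processed pseudogene of at least 95% identity exists, with at most 12.9 CPM on any such copy in forelimbs and 8.42 in cultures. Another gene's exons overlap those of 19 members, and whether counting used strand is not given in the sources used here. The values of Ndufaf2 and Ndufb6 are the least certain in this respect, with 65.65% and 39% of their exonic bases overlapped.

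Among the subunits the mRNA level per length spanned a wide range, from 12.6 to 243 CPM per kb in WT forelimb, and most assembly factors lay towards or below its lower end. Per kilobase of principal transcript, the median of the 36 subunits was 78.55 CPM per kb in WT forelimb, 43.7 in WT R0D3 and 86.11 in WT R40D3. The corresponding medians of the 8 assembly factors were 13.09, 6.741 and 9.568 CPM per kb. Levels were read within a table only, since forelimbs and cultures were counted separately.

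By principal transcript, Ndufa4 had the highest mean per-length level in each WT group, at 370.3 and 247 CPM per kb in the forelimb libraries, 114 and 139.8 in R0D3 and 254 and 350.4 in R40D3. In forelimbs Ndufa7, an accessory N-module subunit, followed at 293 and 193 and Ndufa2, another, at 316 and 138. The ranges of the 3 overlapped in forelimbs, so their order was not resolved. In R0D3, Ndufb8 of the distal membrane arm, at 114 and 136, and Ndufa7, at 99.5 and 114, came next, and Ndufb8 overlapped with both others. In R40D3, Ndufb8 reached 203 and 235 and did not overlap with Ndufa4.

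Ndufa4l2 was lowest in each WT group, and the next ranks of the scale were held by assembly factors. Close above in cultures were the subunits Ndufb2 and Ndufb4, at means of 4.31 and 5.03 CPM per kb in WT R0D3 and 7.93 and 9.97 in WT R40D3. Ndufb4 has a processed pseudogene, Ndufb4c, of 100% identity over 40.16% of the transcript. How reads that match both were counted is not given in the sources used here. In WT forelimb, Ndufaf1, which helps build the membrane arm, was at 10.4 and 9.35 CPM per kb, Ndufaf4, a factor of early peripheral-arm assembly, at 3.29 and 3.10, and Ndufa4l2 at 0.683 and 0.418, and these 3 did not overlap. Ndufaf6, at 10.3 and 9.86 there, lay inside the range of Ndufaf1, so the place of Ndufaf1 among the lowest was not resolved. Of the genes that passed the filter, the lowest in WT R0D3 were Ndufaf5, an arginine hydroxylase of Ndufs7, at 3.497 and 3.25, Ndufaf4 at 3.35 and 3.17 and Ndufaf6, a factor related to phytoene synthases, at 2.315 and 2.07, of which the first pair overlapped. In WT R40D3 the lowest were Ndufaf3, at 6.61 and 7.19, Ndufaf7, a methyltransferase, at 5.80 and 5.52, and Ndufaf6 at 2.66 and 3.78. By mean, Ndufaf4 and Ndufaf5 were no longer among the 3 lowest there, though Ndufaf4, at 6.64 and 7.89, overlapped with Ndufaf3. The order depends on the transcript model: with the union of exons as length, Ndufb8 ranked 20 in R0D3, whereas by principal transcript it was second. Ndufa4 likewise ranked 4 in forelimb, 6 in R0D3 and 2 in R40D3 by union length, and Ndufa2 was then first in forelimb and R0D3.

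Most complex I genes were higher in R40D3 than in R0D3 cultures of WT cells. The 46 genes summed to 1684 and 1872 CPM in the WT R0D3 libraries and to 3061 and 3766 in R40D3, with no overlap. By edgeR's quasi-likelihood test with Benjamini-Hochberg adjustment over all genes, 31 of 45 rose (68.9%), against 11.4% of all genes tested, and 0 fell, against 5.52%. The folds of the 31 ran from 1.504 to 3.69, and the median log2 fold change of the 45 was 0.89, against 0.01 over all genes tested. In 40 of the 45 (88.9%) both R40D3 libraries lay above both R0D3 libraries, against 32.9% of all genes. The exception in the other direction was Ndufaf7, with both R40D3 libraries below both R0D3 libraries, a pattern that 29.2% of all genes showed. In bulk RNA, a change in the mixture of cells and a change in RNA per cell cannot be told apart. With the replicate number as a block, 39 rose, against 16.7% of all genes, and DESeq2 called 36, against 16.9% called in either direction.

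The number of calls rested on few libraries: it fell in each of the 4 fits that left out 1 of these WT libraries. A lone library gives no spread of its own, so only the direction of the count and the effect size are given for such fits. The median log2 fold change stayed between 0.71 and 0.98 in these 4 fits.

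**Figure D1:**
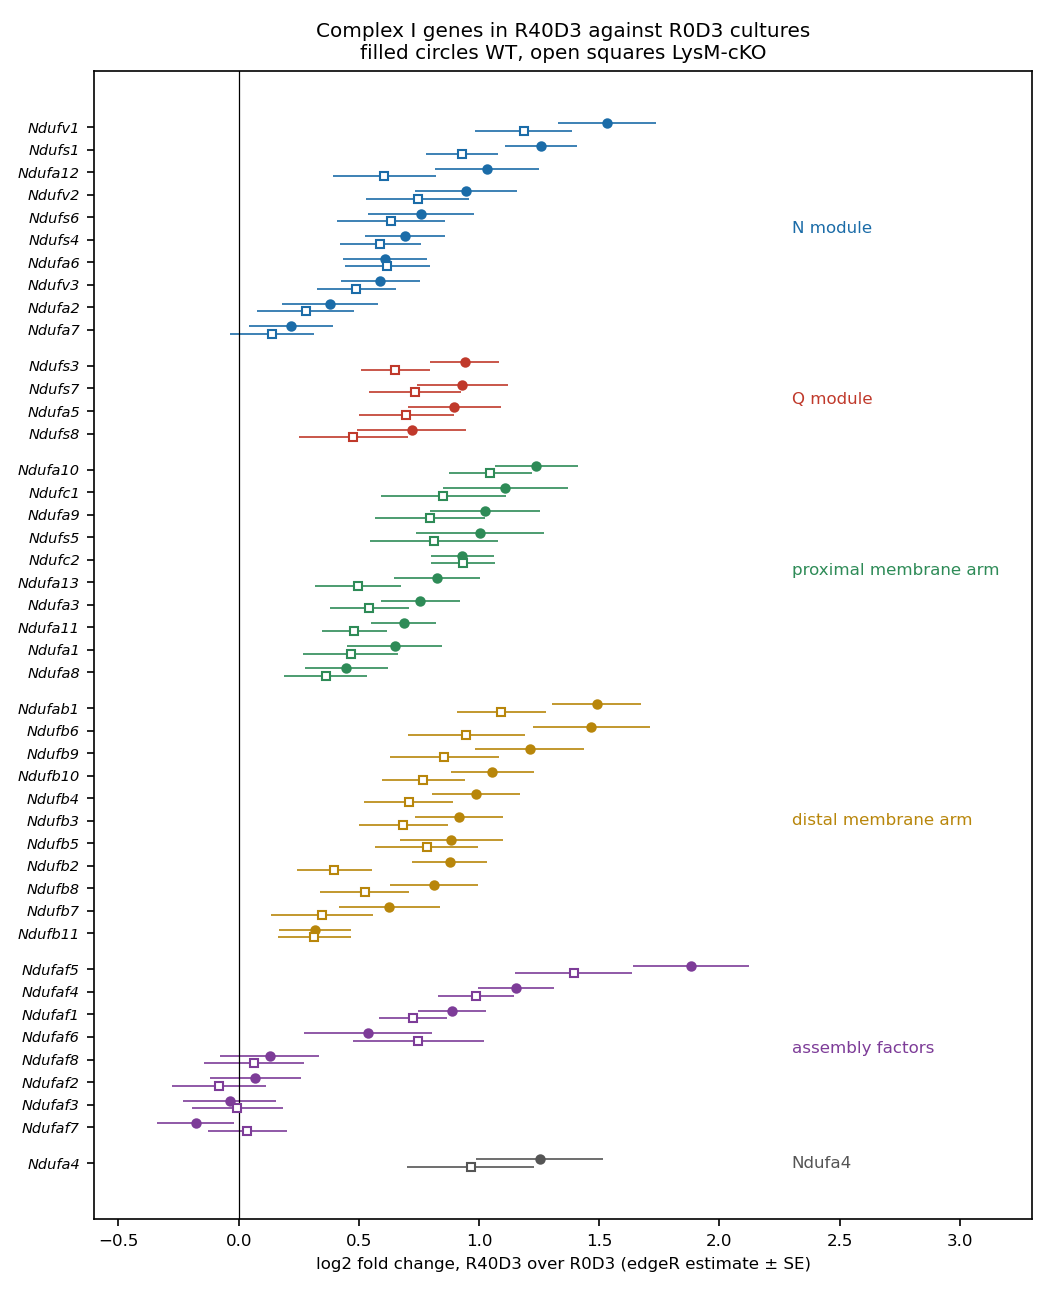
Log2 fold change of R40D3 over R0D3 for 44 of the 45 tested complex I genes, grouped by role, in WT (filled circles) and LysM-cKO cultures (open squares), with the standard error of the edgeR estimate. Nearly all points lie to the right of 0, the assembly factors spread from -0.18 to 1.88 in WT, and most squares lie to the left of their circle.

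The N module, which holds the flavin and most of the iron-sulfur clusters, had 6 of 10 genes up: Ndufv1, Ndufv2, Ndufs1, Ndufa12, Ndufs4 and Ndufv3. Ndufv1, the subunit that binds NADH and the flavin, was at 38.7 and 48.7 CPM in R0D3 and 113 and 139.6 in R40D3, and rose by 1.53 on the log2 scale (SE 0.20, adjusted p 0.00313). Ndufs1, which carries iron-sulfur clusters, went from 71.9 and 69.6 to 152 and 187 (1.26, SE 0.15, adjusted p 0.00214). Ndufv2, with another cluster, went from 53.5 and 63.0 to 103 and 122 (0.95, SE 0.21, adjusted p 0.0224). All 3 had R40D3 libraries well clear of both R0D3 libraries. The accessory subunit Ndufa12, a paralog of the assembly factor Ndufaf2 that takes its place in the finished enzyme, went from 21.6 and 25.1 to 40.1 and 55.4 (1.03, SE 0.21, adjusted p 0.0166). Ndufaf2 itself stood at 7.57 and 7.71 in R0D3 and 7.06 and 9.04 in R40D3, overlapping groups with a log2 fold change of 0.07 (SE 0.19, adjusted p 0.853). The smallest change in the module was that of Ndufa7, at 52.5 and 60.1 against 58.5 and 72.6 CPM (0.22, SE 0.17, adjusted p 0.466).

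In the Q module 4 of 5 genes rose, and Ndufs8 missed the threshold. Ndufs3, a structural core subunit, went from 51.6 and 55.7 CPM to 95.8 and 109.9 (0.94, SE 0.14, adjusted p 0.00547), and Ndufs7, which holds the last cluster before ubiquinone, from 35.5 and 38.1 to 62.2 and 78.0 (0.93, SE 0.19, adjusted p 0.0156). The groups of both were separate. Ndufs8, which carries further clusters, was at 52.4 and 63.4 in R0D3 and 86.7 and 104 in R40D3, also separate, with a log2 fold change of 0.72 (SE 0.23, adjusted p 0.0703, and 0.00061 with the replicate block). Ndufs3 has a processed pseudogene, Gm12251, of 98.6% identity over 75.7% of the transcript.

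The membrane arm rose along its length, with 8 of 10 genes of the proximal part and 9 of 11 of the distal part. Median log2 fold changes were 0.88 and 0.92. Ndufab1, the mitochondrial acyl carrier protein, which is bound to both arms, went from 34.2 and 35.6 CPM in R0D3 to 86.1 and 109.9 in R40D3 (1.49, SE 0.19, adjusted p 0.00247). Ndufb6, an accessory subunit of the distal arm, went from 23.4 and 27.8 to 61.0 and 80.6 (1.47, SE 0.24, adjusted p 0.00714). Both were among the 4 largest rises, with separate groups. Ndufa4 went from 69.7 and 85.2 to 155 and 214 (1.25, SE 0.26, adjusted p 0.0173), without overlap. With the replicate block all 21 membrane-arm genes and all 5 Q-module genes rose, as did 9 of 10 in the N module.

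The assembly factors divided. Ndufaf5 had the largest rise of any member, from 4.08 and 3.79 CPM to 12.4 and 16.8 (1.88, SE 0.24, adjusted p 0.00273). Ndufaf4 went from 12.2 and 11.5 to 24.1 and 28.6 (1.15, SE 0.16, adjusted p 0.00345), and Ndufaf1 from 12.3 and 11.4 to 20.3 and 23.8 (0.89, SE 0.14, adjusted p 0.00591). These 3 had separate groups. For the other 5 the log2 fold changes ran from -0.18 to 0.54 and none passed the test, with or without the block. Ndufaf3, which works with Ndufaf4 in early assembly, was at 10.8 and 10.3 in R0D3 and 9.83 and 10.7 in R40D3 (-0.04, SE 0.19, adjusted p 0.925), and Ndufaf7 was at 11.5 and 10.9 against 10.1 and 9.65 (-0.18, SE 0.16, adjusted p 0.518). The median over the 8 factors was 0.33.

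Since members rose together across chromosomes, their promoters were read for short motifs of factors known from mitochondrial gene control. The windows ran from 250 bases before to 50 after the RefSeq start (GRCm38.p6), and 40 of the 46 genes had an entry, with 42 windows. Those not matched included Ndufa2, Ndufaf6, Ndufa4l2, Ndufb9 and Ndufs1. Letters were searched on both strands, and a match is a string of letters, not a bound site. The NRF1 letters GCATGCGC stood in 5 of 42 windows (11.9%), against 3.518% of 21263 windows of protein-coding genes. A match and its reverse complement GCGCATGC overlap where the run reads GCGCATGCGC. The YY1 letters AAGATGGCG were found in 6 windows (14.29%, against 1.834%), all of them after the start, in Ndufa9, Ndufaf8, Ndufc1, Ndufs4, Ndufs6 and Ndufs7. The ETS letters CCGGAAG, which the factor GABPA reads, were in 6 (14.29%, against 11.56%), AAGGTCA, the ERRA half-site, in 3 (7.143%, against 4.078%), and the E-box CACGTG in 3 (7.143%, against 7.835%).

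The 150 bases before the start are shown for 4 genes with the NRF1 letters there, for 2 of the genes with the ETS letters, and for Ndufaf5 and Ndufv1, the largest risers, which hold none of the 5 motifs in this stretch. Each run is written 5′ to 3′ on the gene's own strand, with matches in capitals. Of the NRF1 genes shown, Ndufaf4 and Ndufa11 rose in WT R40D3 (Ndufa11 from 26.9 and 31.5 to 46.3 and 47.6 CPM, log2 fold change 0.69, SE 0.14, adjusted p 0.0135). Ndufa6, at 60.4 and 59.4 against 77.2 and 106 CPM (0.61, adjusted p 0.054), and Ndufa8 (0.45, adjusted p 0.126) did not pass. Ndufaf5, which holds the NRF1 letters after its start and so outside its stretch, rose as well. The part of these letters in the rise was not tested.
Ndufaf4, chr4:24897933-24898082, + strand: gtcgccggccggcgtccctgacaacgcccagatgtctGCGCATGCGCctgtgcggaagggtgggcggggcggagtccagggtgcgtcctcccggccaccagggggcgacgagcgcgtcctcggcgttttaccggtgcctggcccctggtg
Ndufa11, chr17:56717612-56717761, + strand: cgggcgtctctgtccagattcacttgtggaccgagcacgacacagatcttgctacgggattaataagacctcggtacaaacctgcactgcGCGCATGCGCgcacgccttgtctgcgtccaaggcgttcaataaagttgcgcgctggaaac
Ndufa6, chr15:82354292-82354441, - strand: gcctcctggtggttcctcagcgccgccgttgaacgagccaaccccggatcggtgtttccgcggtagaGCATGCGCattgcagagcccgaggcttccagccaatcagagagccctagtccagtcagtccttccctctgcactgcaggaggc
Ndufa8, chr2:36049339-36049488, - strand: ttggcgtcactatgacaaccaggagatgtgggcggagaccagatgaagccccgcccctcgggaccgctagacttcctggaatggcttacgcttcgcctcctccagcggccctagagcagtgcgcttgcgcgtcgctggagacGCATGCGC
Ndufaf1, chr2:119662835-119662984, - strand: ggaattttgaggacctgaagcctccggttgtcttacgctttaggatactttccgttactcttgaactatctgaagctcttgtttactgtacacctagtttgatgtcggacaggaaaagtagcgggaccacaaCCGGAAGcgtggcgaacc
Ndufs3, chr2:90904722-90904871, - strand: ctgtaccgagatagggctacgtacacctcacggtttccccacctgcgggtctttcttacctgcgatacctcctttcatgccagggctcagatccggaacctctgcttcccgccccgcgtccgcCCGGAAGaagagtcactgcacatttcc
Ndufaf5, chr2:140170496-140170645, + strand: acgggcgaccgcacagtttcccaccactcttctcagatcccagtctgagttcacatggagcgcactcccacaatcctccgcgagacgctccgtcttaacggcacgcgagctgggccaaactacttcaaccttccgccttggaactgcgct
Ndufv1, chr19:4012756-4012905, - strand: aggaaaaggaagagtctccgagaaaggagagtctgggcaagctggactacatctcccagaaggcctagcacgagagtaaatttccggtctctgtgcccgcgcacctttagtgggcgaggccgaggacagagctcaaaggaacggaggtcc

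Outside the stretches shown, Ndufaf5 holds the NRF1 letters just after its start, as Ndufaf4 does once more, and Ndufv1 holds the E-box letters further upstream. The other E-box matches were in the 2 windows of Ndufa7, and the ERRA letters were in Ndufb2, Ndufb4 and Ndufs5.

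In LysM-cKO cultures the same contrast gave changes in the same direction with fewer calls. The summed level was 1538 and 1867 CPM in R0D3 and 2327 and 3217 in R40D3, without overlap. Of the 45 genes, 11 rose (24.4%), against 6.99% of all genes tested, and 0 fell, against 3.15%. All 11 were among the 31 that rose in WT, and they included Ndufs1, Ndufv1, Ndufs3, Ndufa10, Ndufc2, Ndufab1, Ndufb10, Ndufaf1, Ndufaf4 and Ndufaf5. The median log2 fold change was 0.69, and in 37 genes (82.2%) the R40D3 libraries lay above both R0D3 libraries, against 27.3% of all genes. With the replicate block 37 rose, against 13.0% of all genes, and all 37 also rose in WT under the block. DESeq2 called 23, against 11.7% in either direction.

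This count moved with single libraries: it rose without replicate 1 of LysM-cKO R40D3 and fell without its replicate 2 or either LysM-cKO R0D3 library. The median log2 fold change ranged from 0.37 to 0.84 over the same fits. Fitting the 4 compared libraries alone left 4 calls, and scaling by library size alone gave 20. LysM-cKO R40D3 replicate 1 had both the lower summed complex I level and the lower osteoclast marker sum of its pair. The same held for WT R40D3 replicate 1, at 3061 against 3766 CPM and 26292 against 38759 CPM. What part these differences have in the count was not tested.

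The largest rises in LysM-cKO were again in Ndufaf5, at 3.68 and 4.49 CPM in R0D3 and 9.20 and 12.3 in R40D3 (1.39, SE 0.24, adjusted p 0.0141), and in Ndufv1, at 41.2 and 45.9 against 80.9 and 117 (1.19, SE 0.20, adjusted p 0.0126). Ndufab1 followed, at 32.1 and 38.4 against 63.4 and 87.3 (1.09, SE 0.19, adjusted p 0.0124), with Ndufa10, an accessory subunit of the proximal membrane arm, at 56.7 and 73.2 against 114 and 155 (1.05, SE 0.17, adjusted p 0.0115). None of these 4 had overlapping groups. Of the core subunits, Ndufs1 (0.93, SE 0.15, adjusted p 0.0105) and Ndufs3 (0.65, SE 0.15, adjusted p 0.0316) rose as well.

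Ndufv2 (0.74, adjusted p 0.0725), Ndufs7 (0.73, adjusted p 0.0536), Ndufs8 (0.48, adjusted p 0.257), Ndufa4 (0.96, adjusted p 0.0615) and Ndufa12 (0.60, adjusted p 0.135) passed in edgeR's fit with the replicate block and not in the one without, at adjusted p 0.000834, 0.00145, 0.00724, 0.000423 and 0.00252. DESeq2 called Ndufv2, Ndufs7 and Ndufa4 of these as well (adjusted p 0.0137, 0.0111 and 0.00275). Their R0D3 and R40D3 values in LysM-cKO can be read for Ndufa4, at 64.1 and 82.0 against 108 and 177 CPM, and Ndufs8, at 40.5 and 60.7 against 59.3 and 81.5, where replicate 1 of R40D3 lay below replicate 2 of R0D3. Among assembly factors the same 3 rose as in WT, and Ndufaf2 (-0.08) and Ndufaf3 (-0.01) had values near 0.

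Whether the 2 genotypes differed in this rise was tested as an interaction, and no gene passed. Of the 45 members 0 were called by edgeR's quasi-likelihood test (0% of all genes), 0 by DESeq2 (0%) and 0 had an unadjusted p under 0.05, against 1.77% of all genes tested. The estimate was negative, a smaller rise in LysM-cKO, for 40 of 45, with a median of -0.20 against -0.02 over all genes. The smallest p belonged to Ndufb2, an accessory subunit of the distal arm (-0.48, SE 0.22, unadjusted p 0.0658 in the fit over all genes with edgeR), followed by Ndufs1 (-0.33) and Ndufab1 (-0.40). Ndufaf7 and Ndufaf6 (0.21 each) and Ndufaf3 (0.03) had the opposite sign. Leaving out 1 library at a time moved the median from -0.47 to 0.04, the former without replicate 2 and the latter without replicate 1 of LysM-cKO R40D3.

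The nuclear subunits of the other respiratory complexes also rose, and 2 of 7 mitochondrially encoded subunits of complex I did. In WT R40D3 against R0D3, all 4 genes of complex II rose (median log2 fold change 1.22), all 9 of complex III (1.47), all 10 of complex IV (0.93) and 12 of 15 of complex V (0.97). Of all genes tested 11.4% rose. Complex I, at 31 of 45 with a median of 0.89, had the lowest share of called genes of the 5 nuclear lists. Its list also holds assembly factors and Ndufa4, whereas the others hold subunits only, so the shares are not alike. The difference was not tested. Of the 7 mt-Nd genes, which encode the proton-pumping core, mt-Nd1 (0.67, adjusted p 0.0138) and mt-Nd2 (0.57, adjusted p 0.0306) rose. With the replicate block 5 did, against 16.7% of all genes. The counts of mt-Nd3 and mt-Nd4l were only 4 to 26 in any culture library, which limits what could be called for them. In LysM-cKO 3 of 4, 7 of 9, 4 of 10 and 8 of 15 genes of complexes II to V rose, and 0 of 7 mt-Nd genes, against 6.99% of all genes tested.

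Of 12 complex I assembly factors without an Nduf name, 5 rose in WT (median 0.29) and 2 in LysM-cKO (median 0.18). Over all genes tested the shares were 11.4% in WT and 6.99% in LysM-cKO. Among 10 tested regulators of mitochondrial gene expression 3 rose in WT. Ppargc1b, a coactivator of mitochondrial biogenesis, was at 2.74 and 1.24 CPM in WT R0D3 and 35.8 and 37.8 in R40D3 (4.19, adjusted p 0.000505). In LysM-cKO it was at 2.36 and 2.06 against 22.7 and 35.0 (3.70, adjusted p 0.00115). Its partner Esrra, the nuclear receptor that reads the ERRA half-site, went from 47.9 and 52.0 to 85.2 and 107 in WT (0.95, adjusted p 0.00872), and Pprc1, a related coactivator, rose by 0.47 (adjusted p 0.0166).

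Within R40D3, complex I genes lay lower in LysM-cKO than in WT, but none passed the test. The summed level was 2327 and 3217 CPM in LysM-cKO and 3061 and 3766 in WT, so the groups overlapped. By edgeR's quasi-likelihood test 0 of 45 were called, against 0.0143% of all genes. DESeq2 also called 0, against 0.135%, the replicate block called 0, against 0.214%, and 5 genes (11.1%) had an unadjusted p under 0.05, against 7.47% of all genes. The estimate was negative for 44 of 45, with a median of -0.29 against -0.01 over all genes, and 12 (26.7%) had both LysM-cKO libraries below both WT libraries, against 18.9%. Both replicate-numbered pairs were lower in 42 of the 45, against 34.3% of all genes, by a median of 0.39 in replicate 1 and 0.21 in replicate 2 on the log2 scale. Below 700 bases of principal transcript the members' median was -0.29 against -0.11 for all genes. From 700 to under 1000 bases it was -0.26 against -0.09, and from 1000 to under 2000 it was -0.27 against -0.06. From 2000 to under 4000 it was -0.30 against -0.02, and the 1 longer member was at -0.37 against 0.04. The part of transcript length was not tested.

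**Figure D2:**
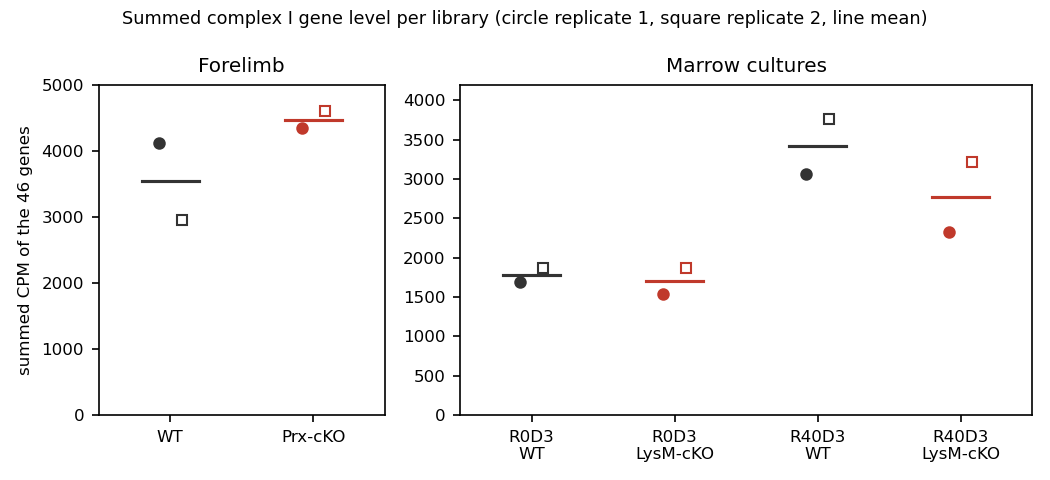
Summed CPM of the 46 complex I genes in each library (circle replicate 1, square replicate 2, line mean) for forelimbs and cultures. The 4 R40D3 libraries sit between 2327 and 3766 and the 4 R0D3 libraries between 1538 and 1872, while WT and LysM-cKO overlap within each state.

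The Q module had the lowest median among the modules at R40D3, -0.35. Ndufs3 was at 95.8 and 109.9 CPM in WT and 70.7 and 90.3 in LysM-cKO (-0.35, SE 0.14, unadjusted p 0.0401 and adjusted p 0.648 with edgeR). Ndufs8 was at 86.7 and 104 against 59.3 and 81.5 (-0.44, SE 0.22). For both genes the LysM-cKO libraries lay below both WT libraries. Of the other core subunits, 4 had overlapping groups, with estimates of -0.35 for Ndufv1, -0.33 for Ndufv2, -0.25 for Ndufs1 and -0.29 for Ndufs7. In the membrane arm, Ndufa11 was at 46.3 and 47.6 in WT and 34.0 and 41.0 in LysM-cKO (-0.33, SE 0.13), and Ndufc2 at 64.3 and 69.4 against 46.8 and 60.8 (-0.32, SE 0.13), both separate.

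The pair of paralogs Ndufa12 (-0.33) and Ndufaf2 (-0.22), and Ndufa4 (-0.37), had estimates of similar size and overlapping groups. The median over the assembly factors was -0.17. These values moved with single libraries: the median over the 45 genes was -0.07 without LysM-cKO R40D3 replicate 1, with 13 genes then positive, and -0.55 without the other LysM-cKO library of that state. Of the WT R40D3 pair, it was -0.40 without replicate 1 and -0.11 without replicate 2. The osteoclast markers moved with the complex I genes, all 10 negative with a median of -0.64, and 5 of 5 cell-cycle genes were positive with a median of 0.76, summing to 121 and 105 CPM in WT and 154 and 285 in LysM-cKO, none at 0. The 7 stromal fibroblast markers summed to 1561 and 1482 CPM in WT R40D3 and 1406 and 414 in LysM-cKO R40D3, with 1 marker at 0 in WT replicate 1 and 2 in LysM-cKO replicate 2. In R0D3 they summed to 1347 and 1169 in WT, with LysM-cKO at 1530 and 487. The part of any of these lists in the complex I values was not tested.

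The only tested member with a positive estimate in LysM-cKO R40D3 was Ndufaf3, at 9.83 and 10.7 CPM in WT and 10.3 and 12.51 in LysM-cKO (0.15, SE 0.19, unadjusted p 0.454 in the edgeR fit), with overlapping groups. Ndufaf3 (chr9:108565537-108567434, - strand, GRCm38) is the neighbour of the deleted gene, Impdh2 (chr9:108560286-108565584, + strand), and their ends overlap by 48 bases, 2.645% of the exonic length of Ndufaf3. Its R0D3 values were 10.8 and 10.3 in WT and 9.60 and 13.3 in LysM-cKO, and its forelimb values 18.9 and 14.2 in WT and 16.4 and 20.7 in Prx-cKO. No group pair of Ndufaf3 was separate, in any of the 3 knockout comparisons.

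In R0D3 cultures the estimates for LysM-cKO against WT were small and none passed the test. Of 45 genes 0 were called by edgeR's quasi-likelihood test (0.0143% of all genes) or DESeq2 (0.0499%), and 1 (2.2%) had an unadjusted p under 0.05, against 4.42%. That gene was Ndufc2, an accessory subunit of the membrane arm, at 34.3 and 35.9 CPM in WT and 28.2 and 28.1 in LysM-cKO (-0.32, SE 0.13, unadjusted p 0.0472 and adjusted p 0.997 in the edgeR fit). The median was -0.06 against 0.01 over all genes, and 7 genes (15.6%) had both LysM-cKO libraries below WT, against 14.8%. This share is near the background. The median turned positive without LysM-cKO R0D3 replicate 1 (0.04) and without WT R0D3 replicate 2 (0.01). Below 700 bases of principal transcript the members' median was -0.08 against -0.09 for all genes. From 700 to under 1000 bases it was -0.06 against -0.08, and from 1000 to under 2000 it was -0.07 against -0.05. From 2000 to under 4000 it was -0.05 against -0.0007, and the 1 longer member was at 0.11 against 0.07. The part of transcript length was not tested.

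Besides Ndufc2, the smallest p values at R0D3 belonged to Ndufaf7, at 11.5 and 10.9 in WT and 10.2 and 8.19 in LysM-cKO (-0.28), and Ndufa6, an accessory subunit that anchors the acyl carrier protein, at 60.4 and 59.4 against 51.3 and 55.8 (-0.16). Both had separate groups. Of those with the opposite sign, Ndufb2 was at 19.7 and 17.9 in WT and 18.5 and 22.1 in LysM-cKO (0.11), and Ndufs1 at 71.9 and 69.6 against 69.3 and 80.1 (0.08), both with overlap.

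**Figure D3:**
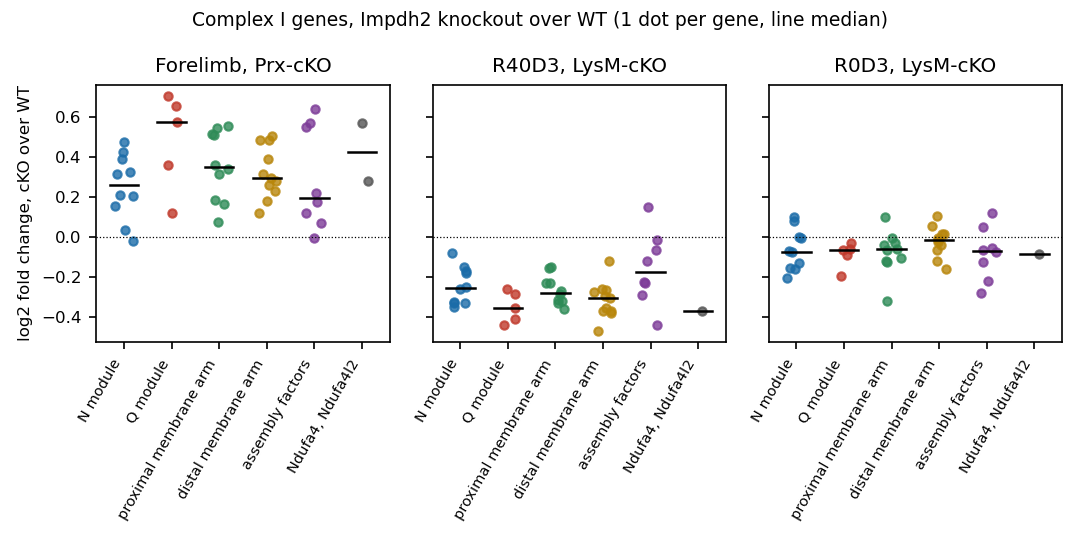
Log2 fold change of knockout over WT for every tested complex I gene (1 dot per gene, line median) by role, in forelimb, R40D3 and R0D3. Dots lie mostly above 0 in forelimb (median 0.31), mostly below 0 in R40D3 (-0.29) and around 0 in R0D3 (-0.06), and no gene passed the test in any panel.

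In Prx-cKO forelimbs the complex I genes lay higher than in WT on balance, and again none passed the test. The summed level was 4114 and 2955 CPM in WT and 4336 and 4599 in Prx-cKO, with WT replicate 2 well below the other 3 libraries. Of 46 genes 0 were called by edgeR's quasi-likelihood test, as were 0% of all 19987 tested, and 0 by DESeq2, against 1.97% of all genes. An unadjusted p under 0.05 was found for 11 (23.9%), against 10.5% of all genes. The estimate was positive for 44 of 46 with a median of 0.31, against -0.03 over all genes, and in 22 (47.8%) both Prx-cKO libraries lay above both WT libraries, against 22.2%. In 0 did both lie below, against 21.0%.

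In the Q module 4 of 5 genes had both Prx-cKO libraries above both WT libraries, against 22.2% of all genes, and its median was 0.58. Ndufs3 was at 83.7 and 81.1 CPM in WT and 126 and 120.2 in Prx-cKO (0.58, SE 0.14, unadjusted p 0.00809 and adjusted p 0.414 with edgeR). Ndufs8 was at 83.2 and 74.2 against 115 and 132 (0.65, SE 0.16, unadjusted p 0.00841 with edgeR), and Ndufs7 at 76.3 and 62.2 against 102 and 123 (0.70, SE 0.19, unadjusted p 0.0118 with edgeR). In all 3 the Prx-cKO libraries were above both WT libraries. Ndufv1 was at 75.9 and 67.6 against 88.9 and 110.3 (0.47) and Ndufs1 at 105 and 107 against 122 and 122 (0.21), each separate. Ndufv2 was at 172 and 114 in WT and 148 and 134 in Prx-cKO (-0.02), with the Prx-cKO libraries inside the WT range.

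Of the paralog pairs, Ndufa12 was at 85.5 and 60.6 CPM in WT and 95.7 and 99.9 in Prx-cKO (0.42), Ndufaf2 at 35.2 and 22.0 against 30.5 and 31.5 (0.12), and Ndufa4 at 226 and 151 against 214 and 242 (0.28). Only Ndufa12 of these had separate groups. Ndufa4l2 was detected at a low level, 0.638 and 0.390 CPM in WT and 0.487 and 0.900 in Prx-cKO (0.57, SE 0.57), with overlap. The other gene with a negative estimate was Ndufaf7, at 29.1 and 23.5 against 25.6 and 26.7 (-0.01).

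The size of this difference rested on WT replicate 2. Without it the median log2 fold change was 0.11 with 30 of 46 genes positive. Without WT replicate 1 it was 0.59 and all 46 were positive, with estimates of 1.00 for Ndufa2 and 0.99 for Ndufa3. Between the libraries that share a replicate number, the median was 0.07 for replicate 1 and 0.67 for replicate 2. Ndufa2, of the N module, showed this at 181 and 79.1 CPM in WT and 166 and 159 in Prx-cKO, as did Ndufa3, of the membrane arm, at 83.7 and 29.0 against 64.9 and 53.7. In both, WT replicate 1 was above the Prx-cKO libraries and WT replicate 2 below them.

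The deficit of WT replicate 2 went with transcript length. Over the 45 members with at least 5 CPM, Spearman's rho between principal transcript length and the log2 ratio of WT replicate 1 to 2 was -0.58, and over 11364 such genes it was -0.56, values across genes that share the 2 libraries. Between the Prx-cKO replicates rho was -0.29 over the members and -0.05 over all genes. Below 700 bases the median WT ratio was 0.63 for 14 members and 0.58 for all 193 genes, and from 2000 to under 4000 bases it was 0.03 for 4 members and -0.04 for all genes of that length. From 700 to under 1000 bases it was 0.56 for 9 members and 0.33 for all genes, and from 1000 to under 2000 it was 0.30 for 17 members and 0.15 for all genes. The members' ratio thus exceeded that of all genes in each of these ranges, least below 700 bases and from 2000 to under 4000.

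**Figure D4:**
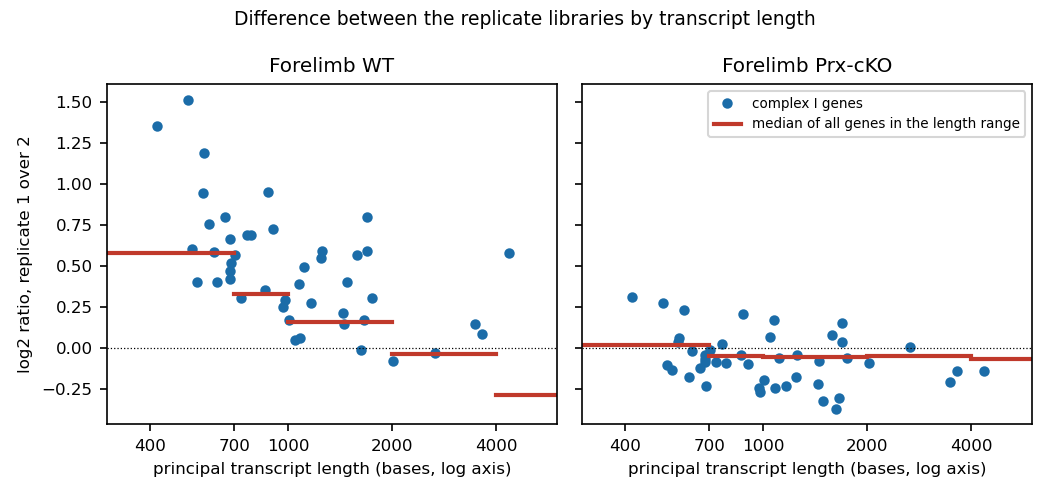
Log2 ratio of replicate 1 over replicate 2 against principal transcript length (bases, log axis) in WT and Prx-cKO forelimbs, with 1 point per complex I gene and red lines for the median of all genes in each length range. In WT the lines fall from 0.58 below 700 bases to -0.29 at 4000 bases and over, and the 1 member in the longest range lies above its line, at 0.58, while in Prx-cKO the lines lie between -0.07 and 0.01.

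By length range, the members' median knockout estimate and that of all genes were as follows: 0.31 against 0.17 below 700 bases, 0.44 against 0.27 from 700 to under 1000, 0.36 against 0.16 from 1000 to under 2000, 0.23 against 0.03 from 2000 to under 4000, and 0.12 against -0.13 at 4000 and over. These ranges hold 14, 10, 17, 4 and 1 of the members. The part of transcript length in the members' knockout estimates was not tested. Ndufs3, Ndufs8 and Ndufs7, the genes with the smallest p, have principal transcripts of 1046, 1005 and 983 bases, and of these Ndufs3 had the closest WT replicates. The nuclear subunits of complexes II to V also had estimates that were all positive (4 of 4, 9 of 9, 10 of 10 and 15 of 15, medians of 0.34 to 0.42). The 7 mt-Nd genes had the opposite sign, all negative with a median of -0.46. Of these, 4 had both Prx-cKO libraries below WT, against 21.0% of all genes. Among these, mt-Nd6 was at 779 and 531 CPM in WT and 443 and 337 in Prx-cKO (-0.75), and mt-Nd3 had an estimate of -0.66.

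Marker sums of several forelimb cell types also differed between WT and Prx-cKO. Here too, a change in the mixture of cells and one in RNA per cell cannot be told apart. The 4 cartilage markers summed to 615 and 658 CPM in WT and 265 and 210 in Prx-cKO, 4 of 4 negative, and the skeletal muscle markers to 261 and 262 against 726 and 356, 4 of 5 positive, with none of either list at 0. Higher sums in both Prx-cKO libraries were also found for endothelium (107 and 113 against 144 and 148), surface ectoderm (575 and 703 against 709 and 766), erythroid cells (1011 and 1008 against 1147 and 1087) and myeloid cells (14.8 and 20.4 against 30.2 and 33.3), with no marker at 0. Skeletal muscle is rich in mitochondria, and the part of any of these shifts in the complex I values was not tested. The female-specific transcript Xist and Y-linked Ddx3y placed WT replicate 1 and Prx-cKO replicate 2 in 1 sex and the other 2 libraries in the other, so sex was not aligned with genotype. Of the members, Ndufa1 and Ndufb11 are X-linked, and Ndufa1, at 63.3 and 24.5 CPM in WT and 54.4 and 43.8 in Prx-cKO, was lowest in the WT replicate 2 library.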

How the data were processed

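The authors deposited raw counts per Ensembl gene in 3 tables, per the file headers. Per the submitters' processing notes, FastQC 0.11.2, Trimmomatic 0.36, HISAT2 2.1.0 and DESeq2 1.12.4 were used with GRCm38. The counting tool, annotation and strand setting are not given in the sources used here, and neither is any batch.

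Identifiers were mapped to symbols, biotypes and transcript models with GENCODE vM21, and the promoter windows came from RefSeq (GRCm38.p6). The members and gene lists were chosen with earlier results of these data known. Forelimb libraries were fitted apart from the 8 culture libraries, which were fitted together. In R 4.3.3, edgeR 4.0.16 with limma 3.58.1 was used: genes were kept by filterByExpr, scaled by TMM, fitted with glmQLFit and tested with glmQLFTest, and p-values were adjusted by Benjamini-Hochberg over all genes tested (called: adjusted p under 0.05). The code was tested on simulated data. CPM values use TMM-scaled library sizes. Levels between genes are per kilobase of the APPRIS principal transcript. "Separate" or "not overlapping" means that both libraries of a group lie beyond both of the other.

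Text values follow a fixed rule: the nuclear core subunits and the paralog pairs in every comparison, the called members with the 4 largest rises or falls (mean of at least 5 CPM), otherwise the 3 with the smallest p, up to 3 with the sign against the median, and the 3 highest and lowest per length in WT. Members with an NRF1 or ETS match, X-linked members and those named as exceptions were chosen after their values were seen. A member that is in the counts, sums and medians is not reported here by itself.

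Same-numbered culture libraries deviated together (r of 0.288 to 0.611 over the 6 pairs of groups), and the number was used as a block on that ground. The forelimb r of 0.307 lies inside this range. Culture replicates 1 and 2 were deposited apart, so whether the number stands for a shared origin or shared handling is not known. Alternatives were RLE scaling, library size alone, no low-count filter, the legacy quasi-likelihood method, DESeq2 1.42.0, the replicate block, only the 4 compared libraries, and leaving out each library.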

Additional observations from a re-analysis of the deposited data

Results flagged for a closer look

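For 6 of the genes reported here both knockout libraries lay above both WT libraries in forelimbs and below both in R40D3 cultures, a pattern found in 6.27% of the 13244 genes tested in both tables. The log2 knockout effect in R40D3 minus that in forelimb was -0.66 for Ndufa10, -0.88 for Ndufa11, -0.80 for Ndufaf1, -0.84 for Ndufb10, -0.93 for Ndufs3 and -1.09 for Ndufs8. Ndufaf6 alone showed the same opposition between forelimb and R0D3 cultures, with a difference of -0.77. As a share of the members this is below the 4.88% of genes tested in both that did so. All the genes named here were listed because their groups lay in opposite directions, so the sizes of the differences are no separate result. The difference was not tested, since the tissues come from separate tables and different Cre drivers, and no knockout effect of these genes passed the test in either.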

How the results depend on the processing

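Counts of called members kept within 1.5 times their value under RLE scaling, no filter and the legacy method in every comparison. In LysM-cKO R40D3 over R0D3 the 11 calls became 20 with library size alone, 23 with DESeq2, 37 with the replicate block and 4 in a fit of the 4 compared libraries. The cause was not tested. The replicate block also turned 2 values that lay near 0, Ndufv2 in forelimb to 0.0066 and Ndufv1 in R0D3 knockout against WT to 0.0024. In forelimbs, where r between the 2 groups' same-numbered libraries was 0.307, the block gave 0 calls among members and 0 among all genes. Library size alone turned Ndufv1 in R0D3 (0.0092) and Ndufaf3 in LysM-cKO R40D3 over R0D3 (0.030), and the 4-library fit turned the latter as well (0.0056).

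Leaving out 1 library at a time gave 7 to 24 calls in WT R40D3 over R0D3 (median log2 fold change 0.71 to 0.98), 1 to 28 in LysM-cKO (0.37 to 0.84) and 0 to 2 in forelimb (0.11 to 0.59). The median ranged from -0.55 to -0.065 for R40D3 knockout against WT, -0.19 to 0.041 for R0D3 and -0.47 to 0.040 for the interaction. Of single genes, the log2 fold change changed sign when 1 library was left out, with the lowest and highest values given here, for R0D3 LysM-cKO against WT (Ndufa12 -0.077 to 0.23, Ndufa4 -0.28 to 0.067, Ndufaf3 -0.14 to 0.31, Ndufb2 -0.033 to 0.21, Ndufs1 -0.033 to 0.15, Ndufs3 -0.19 to 0.021, Ndufs7 -0.23 to 0.014, Ndufs8 -0.52 to 0.042, Ndufv1 -0.16 to 0.17, Ndufv2 -0.37 to 0.048). The same held for the interaction of genotype and culture (Ndufa4 -0.69 to 0.065, Ndufaf2 -0.32 to 0.058, Ndufaf3 -0.16 to 0.29, Ndufaf6 -0.029 to 0.50, Ndufs7 -0.47 to 0.072, Ndufs8 -0.49 to 0.080, Ndufv2 -0.50 to 0.082). Sign changes were also seen for forelimb Prx-cKO against WT (Ndufa4l2 -0.018 to 0.87, Ndufaf2 -0.17 to 0.46, Ndufaf7 -0.15 to 0.12, Ndufv2 -0.28 to 0.27). In the R40D3 over R0D3 contrast they were seen for R40D3 against R0D3 in LysM-cKO (Ndufaf2 -0.28 to 0.075, Ndufaf3 -0.23 to 0.25). They were seen too for R40D3 against R0D3 in WT (Ndufaf2 -0.16 to 0.22). The last was for R40D3 LysM-cKO against WT (Ndufaf3 -0.0075 to 0.31).

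With 2 libraries a group, a fit without 1 of them assumes that the lone library varies like the others. The median member had 542 to 4948 counts in a library, and Ndufa4l2, at 0 in most culture libraries, could not be followed there. Differences between libraries of a pair, in length dependence and in marker sums, limit the knockout comparisons.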

Other observations

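Ndufb1-ps, the Nduf row annotated as a long non-coding RNA, went from 23.0 and 20.6 CPM in WT R0D3 to 33.5 and 40.1 in R40D3. It rose by 0.76 on the log2 scale (SE 0.18, adjusted p 0.0302 with edgeR). In LysM-cKO it was at 19.6 and 22.9 against 26.8 and 37.7.

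The small mitochondrial genes mt-Nd3 and mt-Nd4l were at 0.249 to 1.60 CPM in every culture library, while the other 5 mt-Nd genes were at 247 CPM or more there. In the forelimb libraries the same genes were at 147 to 456 CPM.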
